A study of Rattus norvegicus with 2 samples.

Results

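Astrocyte markers are genes whose messenger RNA is abundant in astrocytes, the glial cells that buffer glutamate and potassium, exchange metabolites through gap junctions and supply neurons with lipids. They were examined here in cultured rat hippocampal neural stem cells, self-renewing precursors that give rise to neurons and glia, after exposure to the inhaled anaesthetic sevoflurane. The set held 10 named genes: Gfap, S100b, Slc1a2, Slc1a3, Gja1, Gjb6, Glul, Sparcl1, Clu and Apoe. Its members were the non-control array probes that carry a RefSeq mRNA accession of one of these genes, which gave 10 probes for 9 genes, of 15323 RefSeq mRNA probes and 24684 probes in all. Slc1a2 had 2 probes, and no probe was matched to Glul, the glutamine synthetase gene. All 10 probes were printed once per array and were well above background on both arrays.

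One sample was kept under 2.4% sevoflurane for 6 h and the control under 0% sevoflurane. Both samples then spent 24 h in an ordinary incubator (5% CO2), although some labels name only the 6 h. Hippocampi of 3-day-old Sprague-Dawley rats were the source, and the cells were used at passage 3 in bFGF medium without serum. Total RNA was labelled by random priming and hybridised to 1-colour microarrays, with 1 array per group, so differences lack a replicate check and carry no p-value. The series' design text speaks of 2 independent experiments, and how these relate to the pair of arrays is not stated.

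Astrocytes and neural stem cells of the hippocampus are related, and several of these genes are shared. Radial glia-like stem cells use the intermediate filament protein GFAP, the glutamate transporter GLAST (Slc1a3) and connexin 43 (Gja1). Apolipoprotein E is also made by microglia, the macrophages of the brain. Of the defining stem cell markers, the filament gene Nes had a sevoflurane signal of 777 and a control signal of 616. Sox2, a transcription factor gene of stem cells, had a sevoflurane signal of 1993 and a control signal of 6835. Both were well above background on each array.

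Differences are sevoflurane minus control in log2 units, after the 75th percentile of each array (a signal of 363 with sevoflurane and 692 in the control) was subtracted. Because the control array was brighter, a gene at an equal scaled level has the lower signal with sevoflurane. At least 1 unit (2-fold) is the size rule. Of 10028 genes measured on both arrays, 27.9% were higher and 11.5% lower by that rule, and the median was 0.25. This background depends on signal level: the median difference was 1.68 in the dimmest of 10 equal groups of genes by level, and it was -0.16 in level group 7. A second value is therefore given where it matters, after an intensity-dependent correction that removes the trend. It left 15.0% of genes higher, 15.5% lower and a median of -0.00. Quantile normalization and the deposited table each gave an all-gene median of -0.10, median scaling 0.07 and normexp background correction 0.31.

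By this rule 4 of 9 astrocyte genes were higher and 3 lower in the sevoflurane sample (background 27.9% and 11.5%), and their median was 0.09. After the intensity-dependent correction 2 were higher and 4 lower (background 15.0% and 15.5%), and the median was 0.01. Quantile normalization also gave 2 higher and 4 lower (background 13.6% and 19.6%), as did the deposited table (13.6% and 19.2%). Apoe, Sparcl1 and Slc1a3 were the lower genes and Gjb6 and Clu higher ones, and these 5 stayed past 2-fold with the same sign in all 6 scalings compared, of which the deposited table gave nearly the same differences as quantile normalization. S100b, Slc1a2 and Gfap changed side of the size rule with the scaling, and Gja1 was close to 0. The set did not move as one. In bulk RNA, fewer cells of a type and less RNA per cell cannot be told apart.

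The sequences before the start sites of the 3 lower genes and of Gjb6 are shown because these 4 genes differed most under the 75th percentile scaling. After the correction Clu (1.30) lay above Gjb6 (1.26), and Gfap (-1.42) was farther from 0 than Gjb6. Each is the stretch of 250 bases that precedes an annotated start in RefSeq (assembly GRCr8), read 5′ to 3′ on the gene's strand. Of several listed starts the first was taken, except for Apoe, where the second of 3 is given. The first Apoe window held 1 antioxidant core and no Sp1 box. The third overlaps the second and held the same 2 Sp1 boxes. Capitals mark matches on either strand to GGGCGG (the Sp1 box) or TGACNNNGC (the core of the antioxidant response element).
Apoe (chr1:88484700-88484949, minus strand): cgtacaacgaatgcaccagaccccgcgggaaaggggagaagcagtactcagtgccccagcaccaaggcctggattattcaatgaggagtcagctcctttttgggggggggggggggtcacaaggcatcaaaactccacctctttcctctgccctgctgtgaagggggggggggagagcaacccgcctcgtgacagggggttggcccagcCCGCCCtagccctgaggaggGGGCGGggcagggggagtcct
Sparcl1 (chr14:5937234-5937483, plus strand): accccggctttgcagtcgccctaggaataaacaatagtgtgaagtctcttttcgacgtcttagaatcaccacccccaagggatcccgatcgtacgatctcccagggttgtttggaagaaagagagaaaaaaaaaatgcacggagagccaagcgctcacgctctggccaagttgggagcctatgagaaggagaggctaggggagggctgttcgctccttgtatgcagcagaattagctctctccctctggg
Slc1a3 (chr2:59557809-59558058, minus strand): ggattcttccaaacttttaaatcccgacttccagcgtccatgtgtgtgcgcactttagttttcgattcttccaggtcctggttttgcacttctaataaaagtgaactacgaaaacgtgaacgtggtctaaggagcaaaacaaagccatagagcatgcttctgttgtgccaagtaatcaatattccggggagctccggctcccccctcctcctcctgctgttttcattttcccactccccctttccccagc
Gjb6 (chr15:35410139-35410388, minus strand): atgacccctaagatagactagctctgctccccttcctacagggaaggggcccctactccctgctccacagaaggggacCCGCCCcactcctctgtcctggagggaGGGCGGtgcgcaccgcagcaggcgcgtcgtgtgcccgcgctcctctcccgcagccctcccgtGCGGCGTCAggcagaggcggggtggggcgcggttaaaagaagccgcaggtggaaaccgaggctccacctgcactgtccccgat
The Gjb6 window held 2 Sp1 boxes and 1 antioxidant core, and the Apoe window 2 Sp1 boxes. The other 2 windows held neither motif. Of all 33469 RefSeq windows of this length, 30.5% hold GGGCGG and 10.1% hold TGACNNNGC. TATAAA (12.9% of windows), the AP-1 element TGANTCA (6.34%), the STAT element TTCNNNGAA (7.67%) and the nuclear factor I palindrome were searched on both strands as well and are in none of the 4. The search covers these letters in these windows only. Windows were available for 9 of the 10 genes, and Clu was not among them.

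Of the 2 glutamate transporter genes of astrocytes, Slc1a3 was lower in every scaling, and Slc1a2 was positive in every scaling with a size that varied. Slc1a3 encodes GLAST, the transporter that predominates in immature astrocytes and radial glia. Its signal was 402 with sevoflurane and 2528 in the control, a difference of -1.72 with a spot error of 0.20 (the scanner software's own error estimate for both spots, not a replicate error). It stayed between -1.90 and -1.53 over the 6 scalings, and 4.16% of measured genes lay lower (7.88% after the correction).

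Slc1a2 encodes GLT-1, the transporter of mature astrocytes, and was dim on both arrays. The probe for NM_001035233.1 had signals of 66.1 with sevoflurane and 52.5 in the control, and the probe for NM_017215.2 signals of 31.0 and 18.3 in the same order. Their differences were 1.27 and 1.69, so both probes gave the same direction and lay 0.43 apart. Corrected for level they were 0.38 and 0.16, and genes of like level as the brighter probe had a median of 0.61 before correction. The sign of Slc1a2 was positive in all 6 scalings, but the size passed 2-fold in only 3 of them for the brighter probe. For the dimmer probe the difference was only 0.01 under quantile normalization and in the deposited table, so its sign there carries little weight. Across 237 genes with at least 2 measured probes, the median SD between probes of a gene was 0.11 and the 90th percentile 1.05. These are SDs, whereas the 0.43 for Slc1a2 is the gap between its 2 probes, which is a larger measure.

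**Figure D1:**
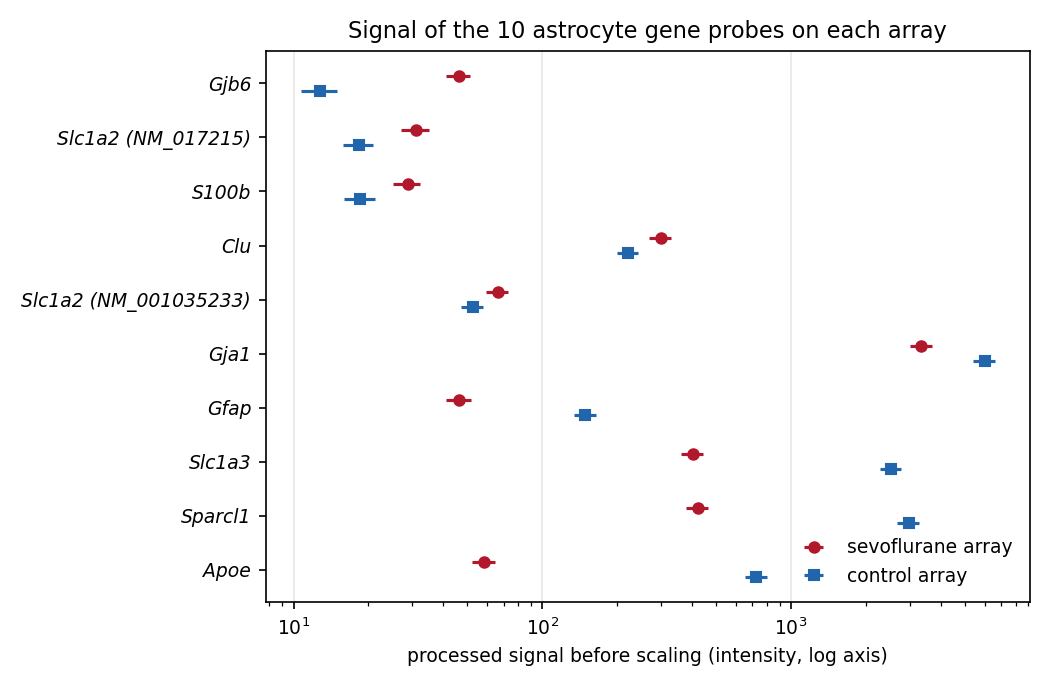
Processed signal (intensity before scaling, log axis) of each of the 10 astrocyte gene probes on the sevoflurane array (circles) and the control array (squares), ordered by the scaled difference. Bars are the scanner software's spot errors; the sevoflurane signal of Apoe, Sparcl1, Slc1a3, Gfap and Gja1 is below the control signal, and that of Gjb6, Clu, S100b and Slc1a2 above it.

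Both gap junction genes had sufficient signal to be measured, and they differed from each other. Gja1 encodes connexin 43, the main gap junction protein of astrocytes and of neural progenitors. Its signals were 3347 with sevoflurane and 6012 in the control, and after scaling its difference was 0.09 ± 0.20 (spot error), the smallest of the set. It ranged from -0.09 after median scaling to 0.11 after normexp. Gjb6 encodes connexin 30, which is found in mature astrocytes. It had signals of 46.2 with sevoflurane and only 12.8 in the control, against a lowest well-above-background signal of 7.22 there. Its difference was 2.78 ± 0.29 (spot error), while other genes of its level group had a median of 1.68. Corrected for level, Gjb6 was at 1.26, and at 1.30 after normexp.

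Apoe, the gene of the main lipid carrier of the brain, had the lowest difference of the set. Its signals were 58.3 with sevoflurane and 726 in the control, giving -2.71 ± 0.21 (spot error). Its range over the scalings was -3.18 to -1.99, and 1.06% of measured genes lay lower (1.25% after the correction). Of 16 measured markers of microglia, another source of Apoe, 10 were lower and 2 higher, against 11.5% and 27.9% of all genes. Their part in this difference was not tested. Clu encodes clusterin (apolipoprotein J), a secreted chaperone that also binds lipids, and went the other way. Its signals were 299.5 with sevoflurane and 221 in the control, its difference 1.37 ± 0.20 (spot error) and 1.30 after the correction, where genes of its level had a median of -0.02. So the members that carry lipids did not share a direction.

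Sparcl1 encodes hevin, a matricellular protein that astrocytes secrete and that promotes synapse formation. Its signals were 422 with sevoflurane and 2977 in the control, a difference of -1.89 ± 0.20 (spot error), and it stayed between -2.07 and -1.69. Together with Slc1a3 and Apoe it makes up the lower genes.

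Gfap, the classical filament gene of astrocytes, had signals of 46.3 with sevoflurane and 149 in the control. Its difference was -0.75 ± 0.22 (spot error), within 2-fold. It was past 2-fold after the correction (-1.42), under quantile normalization (-1.61) and by the deposited values (-1.62), but only -0.24 after normexp, so its sign held in all 6 scalings and its size did not. S100b, the gene of a calcium-binding protein, had signals of 28.7 with sevoflurane and 18.6 in the control. Its difference was 1.56 ± 0.27 (spot error), close to that of its level group (1.68), and it was 0.01 after the correction, -0.18 under quantile normalization and -0.19 by the deposited values. No direction can be given for S100b.

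**Figure D2:**
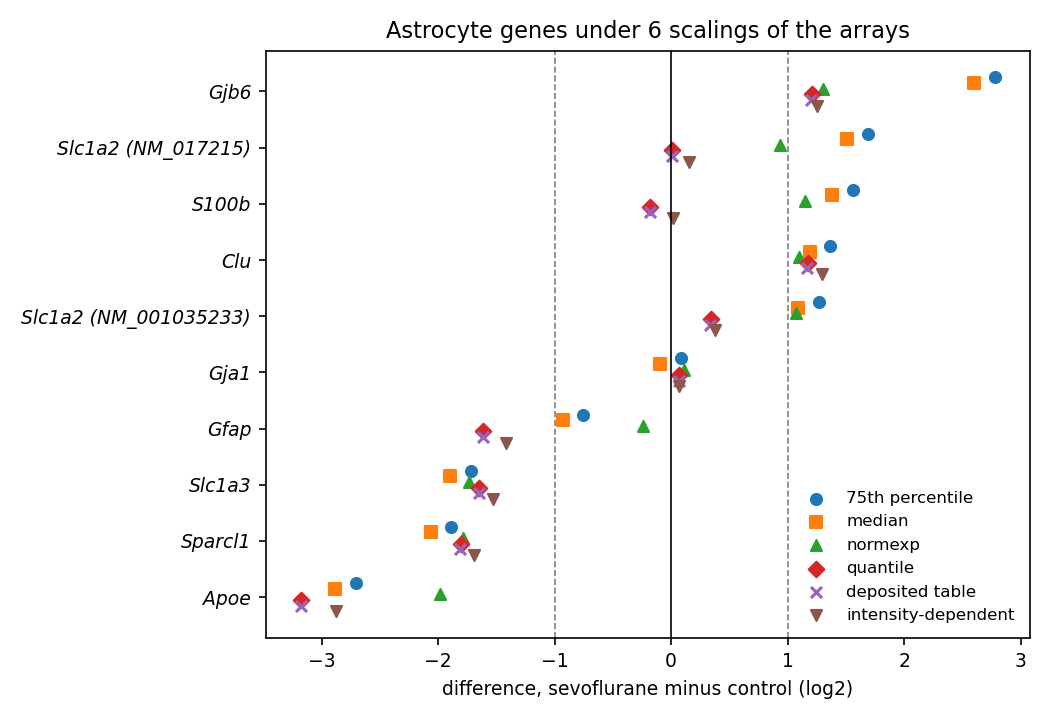
Difference of each astrocyte gene probe (sevoflurane minus control, log2) under 6 scalings of the arrays, with dashed lines at 2-fold. Apoe, Sparcl1 and Slc1a3 lie left of the lower line and Gjb6 and Clu right of the upper line in every scaling, whereas S100b and the 2 Slc1a2 probes spread from near 0 to past the line.

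**Figure D3:**
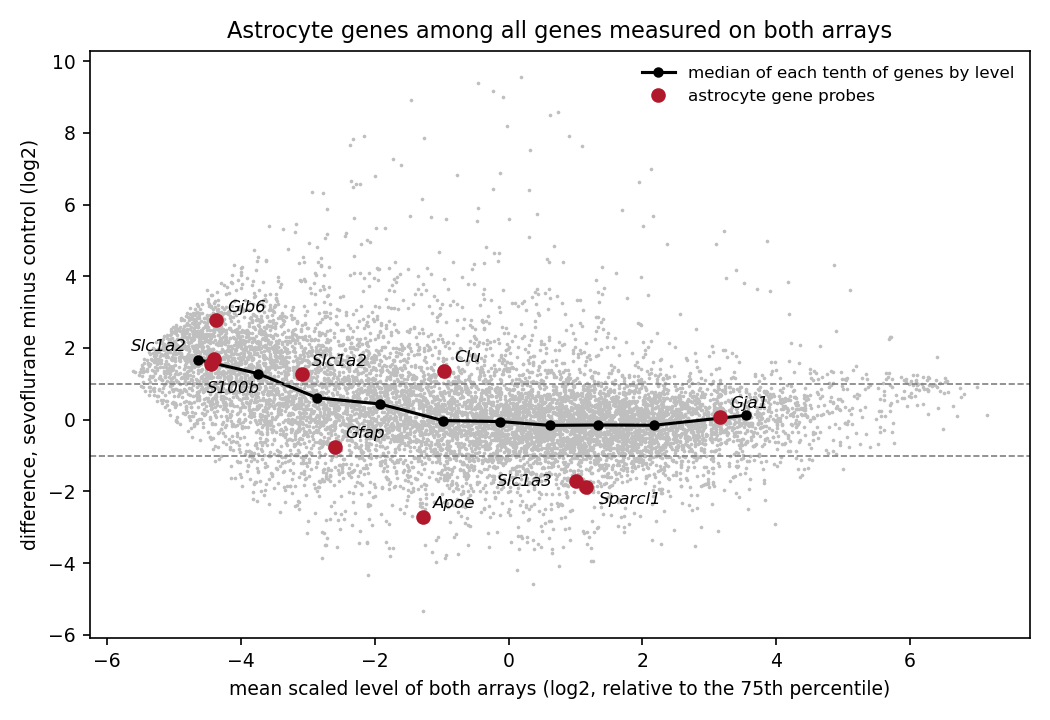
Difference (sevoflurane minus control, log2) against the mean scaled level of both arrays for the 10028 measured genes (grey), the 10 astrocyte gene probes (red) and the median of each of 10 level groups (black). S100b sits near the median of genes of its level, Gjb6 and Clu above it, and Apoe, Sparcl1 and Slc1a3 below it.

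In a further list of genes enriched in astrocytes, 7 of 25 measured were higher, a share near that of all genes (27.9%), and 6 were lower, against 11.5% of all genes. The corrected counts were 6 and 7 (15.0% and 15.5% of all genes), and the median was -0.13. Mt2A, a metallothionein gene, was higher by 3.21, with signals of 1465 with sevoflurane and 301 in the control, and the thyroid hormone deiodinase gene Dio2 by 2.63 (1.40 after the correction). The secretogranin gene Scg3 differed by -2.59 and Atp1b2, a sodium pump subunit gene of glia, by -2.43. Aldoc, the aldolase gene used as a pan-astrocyte marker, differed by -0.13 (0.06 after the correction). Aqp4, the water channel of astrocyte endfeet, was dim, with signals of 24.8 and 42.3 on the sevoflurane and control arrays, and its difference of 0.16 was negative in 4 of the 6 scalings. Aldh1l1 had no matched probe.

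Genes associated with reactive astrocytes, the state that follows injury or inflammation, included 16 of 26 past 2-fold upward and 0 downward, against 27.9% and 11.5% of all genes. Once corrected they numbered 8 and 0, against 15.0% and 15.5%. Their median was 1.17, or 0.79 corrected. Several of them are general stress or inflammatory genes. The chemokine gene Cxcl10 was higher by 4.39, with signals of 231 with sevoflurane and 21.0 in the control. The cyclooxygenase gene Ptgs2 was higher by 3.94, with signals of 94.7 with sevoflurane and 11.8 in the control. Spp1, the osteopontin gene, was higher by 4.08, with signals of 4556 with sevoflurane and 513 in the control, and the sphingosine kinase gene Sphk1 by 2.80. These 4 were past 2-fold in all 6 scalings.

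Of 29 measured regulators of astrocyte fate 6 were higher and 4 lower (3 and 5 after the correction), shares near those of all genes (27.9% and 11.5%, or 15.0% and 15.5% corrected), and the median was -0.02. Socs3, a feedback inhibitor of the STAT3 pathway that drives astrocyte genes, was higher by 3.18, and the LIF receptor gene Lifr and Bmp2 by 2.21 and 2.19. The corrected values of these 3 genes were 1.79, 0.73 and 0.52. Olig1, a factor of the oligodendrocyte lineage, differed by -1.42.

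Of 17 measured genes of glutamate and glutamine handling, 3 were higher and 4 lower, against 27.9% and 11.5% of all genes (3 and 5 after the correction, against 15.0% and 15.5%). Slc7a11, the cystine/glutamate exchanger gene, was higher by 3.64 (signals 1956 and 298 on the sevoflurane and control arrays), and the glutamine transporter gene Slc38a5 by 2.95. The neuronal genes Slc17a6 and Gad1, for vesicular glutamate transport and GABA synthesis, differed by -3.11 and -2.99. Slc1a1, the neuronal glutamate transporter gene, differed by -1.05. It was at -1.91 after the correction, -2.21 under quantile normalization, -1.23 under median scaling and -0.02 after normexp. Slc38a3, the astrocytic glutamine exporter gene, was at 0.65 here and negative in 3 of the 6 scalings.

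Among the other connexins and pannexins, 6 of 9 measured genes were higher and 0 lower, against 27.9% and 11.5% of all genes (4 and 1 after the correction, against 15.0% and 15.5%). Most of these connexin genes were dim, and in the 2 dimmest level groups 75.1% and 58.5% of all genes were higher. Gja5, the connexin 40 gene, was higher by 3.64 (signals 505 and 77.0 on the sevoflurane and control arrays), Gja3 by 2.77, Gjb1 by 2.38 and Gjb5 by 2.29 (0.71 after the correction). Gjb2, the connexin 26 gene, which astrocytes also use, was at 1.09 (0.69 after the correction).

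Lipoprotein and cholesterol transport genes, with which Apoe and Clu work, numbered 5 higher and 4 lower among 17 measured, against 27.9% and 11.5% of all genes. The higher share is near that background, and the corrected counts were 1 and 6 (15.0% and 15.5% of all genes). Abcg1, a sterol exporter gene that loads lipid onto apolipoprotein particles, differed by -2.56, with signals of 148 with sevoflurane and 1672 in the control. Abca1, another such exporter gene, differed by -1.26. It was at -1.89 after the correction, -2.14 under quantile normalization, -1.43 under median scaling and -0.37 after normexp. Apob was higher by 2.57, Apod by 2.02 (0.67 after the correction), Apom by 1.96 (0.40) and the lecithin-cholesterol acyltransferase gene Lcat by 1.27 (0.43). Lrp1 had no matched probe.

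Relatives of Sparcl1 and other matricellular genes numbered 4 higher and 3 lower among 10 measured, against 27.9% and 11.5% of all genes, with the same counts when corrected (15.0% and 15.5%). The lower ones were Spock2 at -3.59, the tenascin-R gene Tnr at -3.41 and Spock3 at -2.60, while Smoc1 was higher by 3.42. In the S100 list 8 of 9 measured genes were higher and 0 lower, against 27.9% and 11.5% of all genes (5 and 0 after the correction, against 15.0% and 15.5%). S100a6 was higher by 4.50, with signals of 2557 with sevoflurane and 216 in the control, S100a4 by 2.55 and S100a1 by 2.51 (0.92 after the correction). S100pbp, which is listed with them but encodes a binding protein and not an S100 protein, was higher by 3.09. Relatives of Gfap and other filament genes numbered 7 higher and 0 lower among 12 measured (5 and 1 corrected), against 27.9% and 11.5% of all genes. The nuclear lamin gene Lmna was at 4.39, Ina at 1.98 (0.90 corrected), Sync at 1.88 and Des at 1.86, and Nes was at 1.27.

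**Figure D4:**
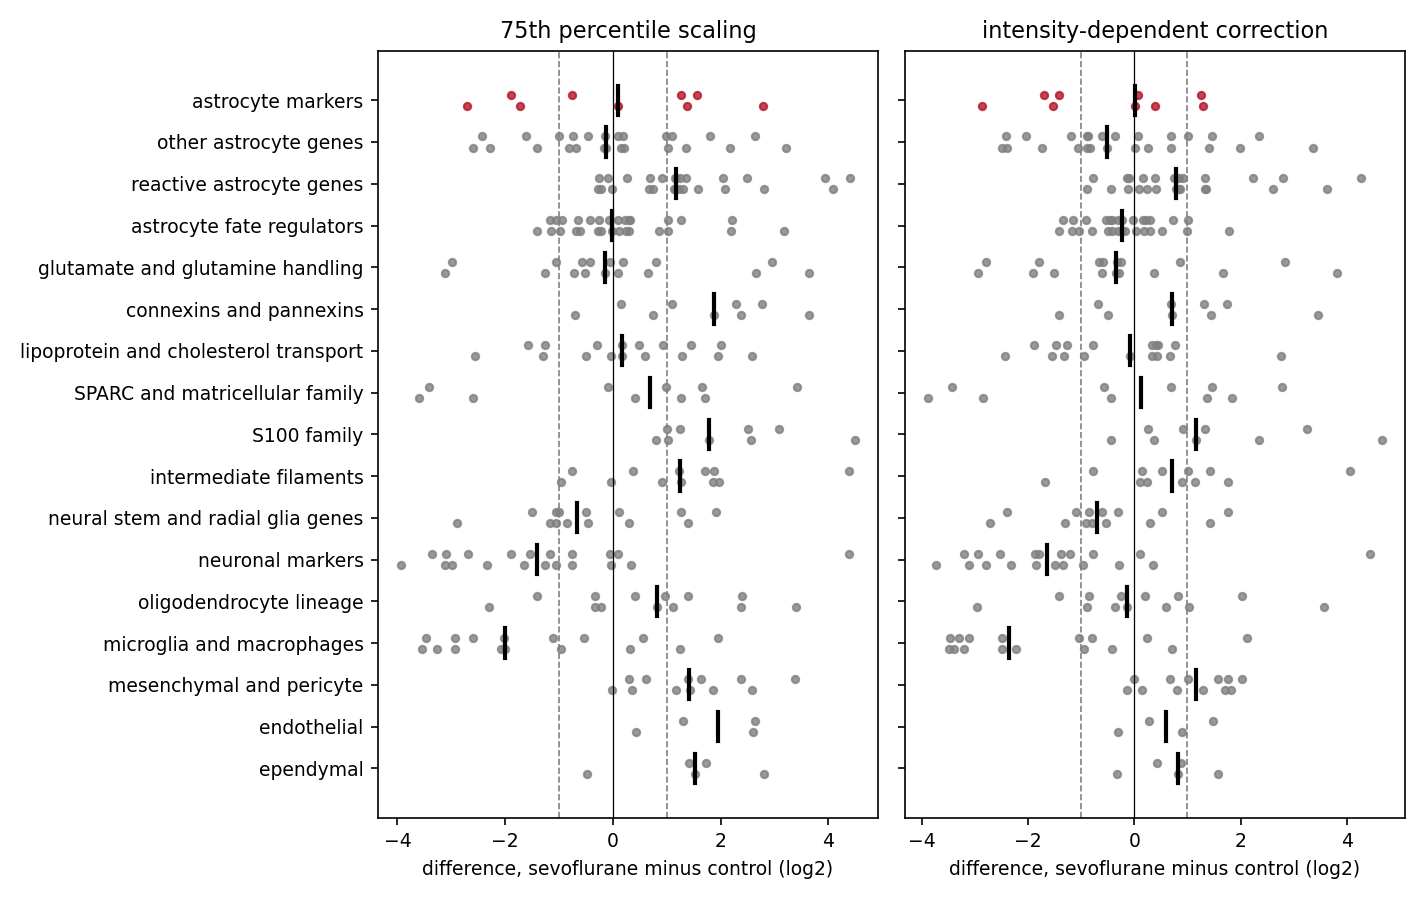
Difference (sevoflurane minus control, log2) of every measured gene of the astrocyte markers (red) and of 16 related or other cell type lists (grey), under the 75th percentile scaling (left) and after the intensity-dependent correction (right). Black bars are list medians and dashed lines 2-fold. The S100 and reactive lists are among those with medians above 0 in both panels, and the neuronal and microglial lists among those with medians below 0.

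Markers of other cell types were read against the same background, 27.9% of all genes higher and 11.5% lower, or 15.0% and 15.5% corrected. The microglial list had 10 lower and 2 higher of 16 measured. Its summed sevoflurane signal was 4383 and its summed control signal 16798, a ratio of 0.497 after scaling, and Itgam and Cx3cr1 were not well above background on either array. Ctss, C1qa, Tyrobp and Cd53 were at -3.55, -3.46, -3.27 and -2.94. The neuronal list had 13 lower and 1 higher of 20 measured, with summed signals of 28160 with sevoflurane and 145791 in the control (ratio 0.368 after scaling). L1cam, Neurod6 and Slc17a6 were at -3.93, -3.36 and -3.11, whereas Eno2 was at 4.37.

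Stem and radial glia genes, the closest relatives of astrocyte genes in these cells, numbered 3 higher and 6 lower among 14 measured, and their median was -0.67. Their summed signals were 12109.7 with sevoflurane and 40146 in the control (ratio 0.575 after scaling). Ptprz1 and Hopx, both also expressed in astrocytes, were at -2.90 and -1.49, Sox2 at -0.85, Msi1 at 1.40 (0.52 after the correction) and Nes at 1.27. In the mesenchymal list, which includes pericyte genes, 8 of 12 measured were higher and 0 lower (7 and 0 corrected). The largest differences were those of Rgs5 at 3.38 (1.82 corrected), Thy1 at 2.58 (1.02), Cspg4 at 2.37 (2.04) and Des at 1.86 (1.77). Rgs5 and Thy1 were dim in the control, with signals of 9.56 and 12.6, and Thy1 passed 2-fold in 4 of the 6 scalings. Its summed signals were 43671 with sevoflurane and 51798 in the control (ratio 1.61 after scaling). The oligodendrocyte list had 5 higher and 2 lower of 13 measured (3 and 2 corrected). Bcas1 was at 3.39, Gpr17 at 2.39 (0.82 corrected) and Ugt8 at -2.29. The summed signals were 6726 with sevoflurane and 5931 in the control (ratio 2.16 after scaling). Of these sums Bcas1 alone gave 4012 and 727, so the ratio rests largely on that gene. Of 4 endothelial genes 3 were higher (1 corrected), with Cldn5 at 2.63 and Flt1 at 2.59 (0.90 corrected), and the summed signals were 218 with sevoflurane and 159 in the control (ratio 2.60 after scaling). Of 5 ependymal genes 4 were higher (1 corrected), with Tmem212 at 2.81. The summed signals were 715 with sevoflurane and 1236 in the control (ratio 1.103 after scaling). Rsph1, which was at -0.49, gave 393 and 1050 of these sums. For the astrocyte markers themselves the summed signals were 4716 with sevoflurane and 12697 in the control (ratio 0.708 after scaling). Gja1 alone gave 3347 and 6012 of these sums. The part of any of these cell types in the differences of the astrocyte genes was not tested.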

How the data were processed

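Intensity values per spot were deposited as scanner output of Agilent Feature Extraction 11.0.1.1, 1 colour (Cy3), with the version as per the submitters' processing notes, already background-subtracted by that software and not scaled between arrays. The authors' deposited table holds log2 values of 24529 probes made by a method that the sources used here do not give. Its columns correlated with the log2 scanner signals at 0.991 (sevoflurane) and 0.993 (control) and had medians of 5.61 and 5.60 in that order, so its log2 scale was inferred. Its differences lay within 0.0063 log2 units of the quantile-normalized ones for the member probes (median gap 0.0041 over 9971 genes), so it is no independent scaling.

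Control spots and spots with outlier flags were left out, spots of a probe were averaged on the log2 scale, and each array's 75th percentile was subtracted. A probe counted as measured when most of its spots were well above background on both arrays, and a gene was represented by its brightest measured probe. The detection flag is the scanner software's own. Accessions without versions named 14274 of 15323 RefSeq mRNA probes. The array design refers to rat build rn4, and promoter windows to GRCr8. Among probes with repeated spots the median SD was 0.088 log2 units with sevoflurane (4506 probes) and 0.068 in the control (4491 probes). No spot was saturated. The number of arrays limits the precision.

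The alternatives were quantile normalization, median scaling over measured probes, a loess correction of the difference on level, normexp (offset 50, limma 3.58.1), the deposited table, flagged spots kept, the mean of a gene's probes, and dim probes kept. Normexp used the median spot signal, because the mean spot signal planned for it is not among the columns used here. The procedure was tested on simulated data. Each array had its own scan day, and a scan effect and the group effect cannot be told apart. The members, the lists and the size rule were chosen with earlier results of these data known. The text names all members, up to 4 genes per list by absolute difference, and a fixed set of partners and markers, which also holds Slc38a3, Slc1a1, Gjb2, Abca1, Lcat, Nes, Sox2, Aqp4 and Aldoc. Some genes that the rule would name are not reported here. R 4.3.3 and Python 3.11.15 were used.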

Additional observations from a re-analysis of the deposited data

How the results depend on the processing

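Of 72 values of the 9 astrocyte genes under 8 alternatives, 62 kept their sign and their side of the 2-fold rule, and 7 genes kept their sign throughout. S100b reversed to -0.18 after quantile normalization and to -0.19 in the deposited table, and Gja1 was at -0.092 after median scaling. The genes past 2-fold upward numbered 2 instead of 4 with quantile normalization, with the deposited values and with the intensity-dependent correction. The median difference of the member genes was -0.18 with quantile normalization, -0.19 with the deposited values and -0.092 with median scaling. For the further astrocyte list, the higher genes numbered 14 instead of 7 with dim probes kept. Its median was -0.58 after quantile normalization, -0.59 in the deposited table, -0.52 after the intensity-dependent correction, -0.31 after median scaling, and 0.19 both after normexp and with dim probes kept. Over all genes, 45.9% were higher with dim probes kept, and 13.6% were higher and 19.6% lower after quantile normalization. The cause was not tested, except that the correction by its construction removes the trend with level. No paired analysis was possible because each group has 1 array, and none could be left out. Dim probes limit Gjb6, S100b and Slc1a2.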

Other observations

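Some genes of the astrocyte-related lists were well above background on the sevoflurane array only. For these, only an approximate lower bound of the fold can be given. Such genes made up 15.4% of the 13862 genes with a usable probe, against 1.44% that were well above background on the control array only, so their number in a list says little by itself. The bounds are on the 75th percentile scale, with no correction for level. Genes in the dimmest level group had a median difference of 1.68 log2 units. A dim signal below the lowest one called well above background on its array was raised to it (6.88 with sevoflurane, 7.22 in the control). Some spots not called so were brighter, such as Srgn at 11.8 with sevoflurane and Fstl3 at 8.45 in the control. A true fold can therefore lie below these bounds. The genes named were chosen after their values were seen. Osmr, the oncostatin M receptor gene, had signals of 36.8 with sevoflurane and 4.88 in the control, and an approximate bound of 9.70-fold higher with sevoflurane. This bound was 7.91-fold for the BMP receptor gene Bmpr1b and 7.66-fold for the glypican gene Gpc5. Lcn2, the lipocalin gene of reactive astrocytes, had a bound of 7.11-fold. It was 4.64-fold for Kcnj10, the potassium channel gene of astrocytes, and 3.37-fold for Gpr37l1. Among the neuronal markers, Syt1 was well above background on the control array only. Its approximate bound was 1.96-fold lower in the sevoflurane sample.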
